A study of Eucalyptus urophylla with 24 samples.

Results

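The 10 genes described here carry the annotation of chlorophyll breakdown enzymes and regulators, and their transcripts were measured by RNA sequencing in triploid and diploid *Eucalyptus urophylla*, a plantation tree. They are the genes, among 26033 in the deposited table, whose description names a chlorophyll b reductase (NYC1 or NOL), a chlorophyllase, a pheophytinase, the red chlorophyll catabolite reductase or a STAY-GREEN protein. Pheophorbide a oxygenase was searched for as well and matched 0 descriptions. The groups were triploid terminal buds, young leaves (juvenile leaves in the labels), mature leaves and senescent leaves, and diploid control plants at the same 4 stages, with 3 libraries in each of the 8 groups. The triploid plants came from sexual polyploidization, and the study set them against the diploid to ask how a change of ploidy bears on leaf chlorophyll. Plants of both ploidies were untreated as far as the labels say, and their age was not given. How many clones or trees the 3 libraries of a group stand for was not given either, and the p-values therefore reflect only library-to-library spread, which may be technical. All triploid libraries share 1 code in their titles and all diploid libraries another, so an effect of ploidy and any other difference of the 2 plant sources cannot be told apart.

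Green leaves dismantle chlorophyll inside the plastid, step after step. NYC1 and NOL reduce chlorophyll b on its way to chlorophyll a, STAY-GREEN takes out the central magnesium to leave pheophytin a, pheophytinase cuts off the phytol tail to give pheophorbide a, pheophorbide a oxygenase opens the ring, and the red chlorophyll catabolite reductase turns the red product colourless. In Arabidopsis, loss of STAY-GREEN, pheophytinase or the oxygenase keeps ageing leaves green, whereas chlorophyllase, which cuts phytol from chlorophyll itself, is not needed for leaf yellowing.

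Transcript abundance was read as FPKM, a fragment count scaled to transcript length and library size, so that levels of different genes can be set side by side. All 10 genes passed the filter of a mean of at least 0.5 FPKM, as did 19174 genes in all. Differences are given on the log2(FPKM + 1) scale from limma with their standard error (SE), calls needed an adjusted p (Benjamini-Hochberg) below 0.05, and group means are given with their SD over 3 libraries. In these bulk tissues, fewer cells of a type and less RNA per cell cannot be told apart. The libraries held 38395755 to 64400745 counts in genes (22 libraries with counts). The median gene itself differed between groups, by −0.21 for terminal buds, −0.002 for young, 0.28 for mature and 0.24 for senescent leaves (triploid minus diploid, log2, 11530 well-measured genes), and in the step to mature leaves by −0.15 in the triploid and −0.51 in the diploid. Differences after dividing each library by its median ratio, which removes this shift, are therefore given beside the calls they change ("after scaling"). Of all genes called between ploidies, 28.6% were higher in triploid terminal buds, 65.2% in mature and 66.7% in senescent leaves, and after scaling 47.1%, 47.1% and 49.1%. Of those called in the step to young leaves, 65.4% rose in the triploid and 55.7% in the diploid (46.8% and 45.1% after scaling), and in the diploid step to mature leaves 27.4% rose (45.9% after scaling). Of the differences between these steps, 74.7% of those called for young leaves and 68.2% for mature leaves were above 0 (49.9% and 47.9% after scaling). Of the diploid libraries, terminal bud 3 and young leaf 1 and 3 lay farther from their groups than any other and are called the libraries that stood apart. The summed FPKM of 21 senescence markers was 8881 to 9492 in triploid senescent leaves against 503 to 543 in triploid mature leaves, and 29827 to 33443 in diploid senescent leaves against 1797 to 1969 in diploid mature leaves, with 3 to 7 of the markers at 0 in a group. Most of it was 1 gene, Eucgr.D00494, annotated as the senescence protease SAG12 (5339 ± 141 FPKM in triploid and 28745 ± 1835 FPKM in diploid senescent leaves). Of the 13 markers that passed the filter, 8 were higher and 2 lower in triploid than in diploid senescent leaves (median 0.45 against 0.17 for all genes, log2), or 4 and 2 after dividing each library by its median ratio. The 11 bud markers, 0 to 3 of them at 0 in a group, summed to 353 to 382 FPKM in triploid young leaves against 246 to 253 FPKM in triploid terminal buds. In the diploid they summed to 299 to 377 FPKM against 255 to 315 FPKM, so their sum was not highest in the buds. Of the 10 tested, 8 were higher and 2 lower in young leaves than in buds in the triploid (45.0% higher and 23.8% lower among all genes). In the diploid 3 were higher and 2 lower (33.4% and 26.6%).

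The clearest change was at senescence. STAY-GREEN (Eucgr.E00514), the pheophytinase gene Eucgr.G03276 and NYC1 (Eucgr.C01035) reached their highest levels in senescent leaves of both ploidies, with 20.1, 8.51 and 3.41 times the mean FPKM of mature leaves in the triploid and 29.4, 17.9 and 5.71 times in the diploid. The red chlorophyll catabolite reductase (Eucgr.I00930) rose in both as well, by 1.31 and 1.44 times. STAY-GREEN LIKE (Eucgr.F02776), NOL (Eucgr.G02650) and both chlorophyllase-2 genes fell in senescent leaves of both ploidies. In the triploid, 4 of the 10 genes rose and 6 fell from mature to senescent leaves, with 61.1% of all genes called, 29.0% higher and 32.1% lower. In the diploid, 4 rose, 4 fell and 2 were not called, with 57.7% of all genes called, 25.3% higher and 32.4% lower. By their rank among all 19174 changes, STAY-GREEN stood 103rd from the top in the triploid and 71st in the diploid, Eucgr.G03276 stood 135th in the diploid, and STAY-GREEN LIKE stood 139th from the bottom in the triploid. STAY-GREEN was the 86th most abundant transcript of triploid senescent leaves and the 54th of diploid senescent leaves, and Eucgr.G03276 was the 132nd and the 179th.

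**Figure D1:**
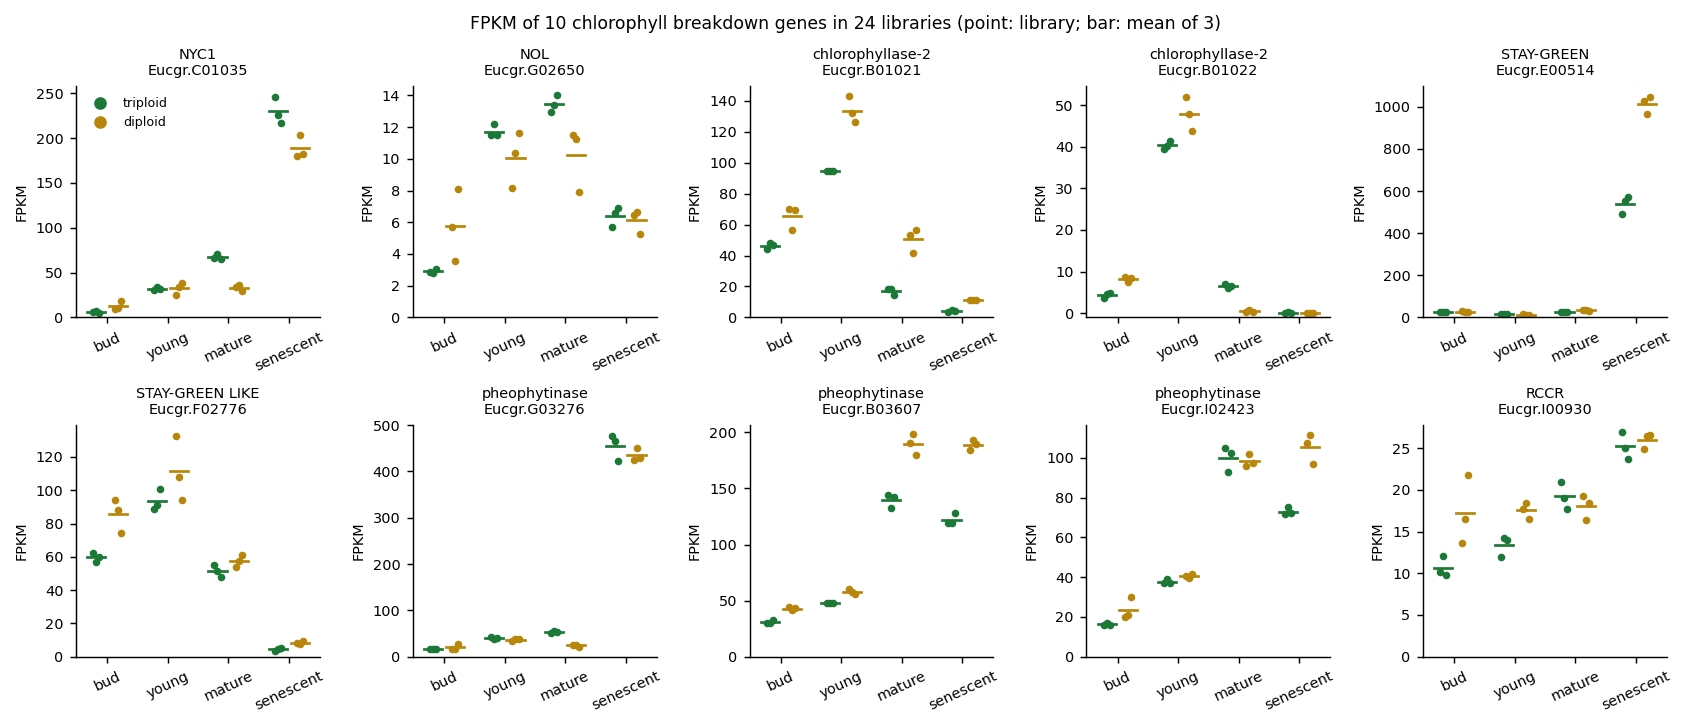
FPKM of the 10 chlorophyll breakdown genes (linear axis, 1 panel a gene) at 4 leaf stages, with 3 points for the libraries of a group and a bar for their mean, triploid left of diploid. STAY-GREEN, the pheophytinase Eucgr.G03276 and NYC1 stand highest in senescent leaves, with 539.7, 455 and 229.9 FPKM in the triploid and 1013, 435 and 189 FPKM in the diploid, while both chlorophyllase-2 genes and STAY-GREEN LIKE peak in young leaves.

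From terminal buds to young leaves, 9 of the 10 genes rose and 1, STAY-GREEN, fell in the triploid (68.8% of all genes called, 45.0% higher and 23.8% lower), and 8 rose, STAY-GREEN fell and 1 was not called in the diploid (60.1% of all genes called, 33.4% higher and 26.6% lower). After scaling 7 rose and 1 fell in each ploidy (66.5% of all genes called in the triploid and 59.0% in the diploid), since STAY-GREEN LIKE was then called in neither, with 0.27 (adjusted p = 0.115) in the triploid and 0.22 (adjusted p = 0.217) in the diploid. The rise of red chlorophyll catabolite reductase in the triploid, 0.30 ± 0.12 (SE, adjusted p = 0.0346), became −0.03 (adjusted p = 0.807) after scaling, and it was not called without triploid terminal bud replicate 1 or 3 or triploid young leaf replicate 2 or 3 (0.28, 0.25, 0.26 and 0.27). The diploid rise of STAY-GREEN LIKE was not called without diploid terminal bud replicate 3 (0.28) or diploid young leaf replicate 1 (0.24). From young to mature leaves, 6 rose, 3 fell and 1 was not called in the triploid (69.7% of all genes called, 26.9% higher and 42.8% lower), and 3 rose, 4 fell and 3 were not called in the diploid (76.6% of all genes called, 21.0% higher and 55.6% lower). The diploid count depended on the shift of the median gene, and after scaling 6 rose and 3 fell (70.3% of all genes called), with NYC1, NOL (0.49, adjusted p = 0.00938) and red chlorophyll catabolite reductase (0.52, adjusted p = 0.000295) added to those that rose. The largest falls at this step were those of the chlorophyllase-2 genes.

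**Figure D2:**
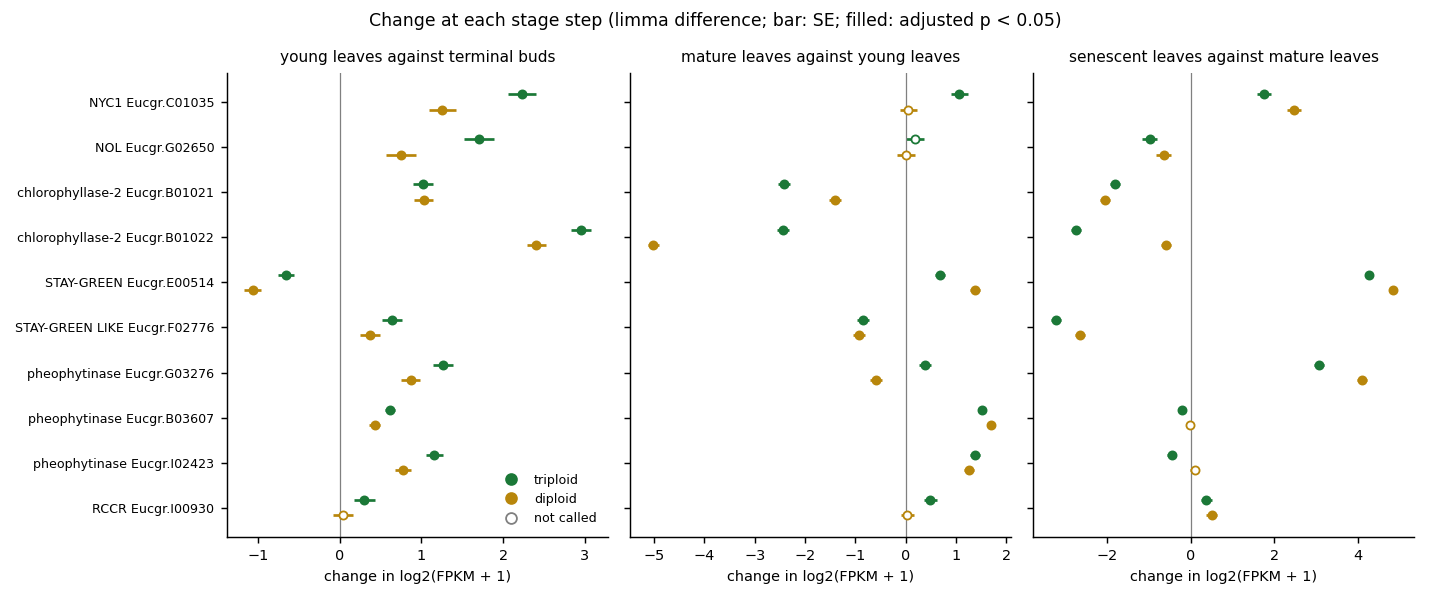
Change of the 10 genes at each step between stages, as the limma difference of log2(FPKM + 1) with its SE, triploid above diploid for each gene (3 libraries a group, filled points called at an adjusted p under 0.05). STAY-GREEN rises by 4.27 in the triploid and 4.84 in the diploid in the right panel, and the chlorophyllase-2 gene Eucgr.B01022 has the widest gap between ploidies in the middle panel, −2.45 against −5.02.

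Chlorophyll b reductases act first. NYC1 (Eucgr.C01035, chromosome 3, positions 16920292 to 16924857, minus strand, as the deposited table places it on the *E. grandis* genome) reduces chlorophyll b within the light-harvesting complexes. In the triploid its level was 5.94, 7.004 and 5.12 FPKM in terminal buds, followed by 30.1, 33.4 and 31.6 in young, 66.5, 70.9 and 64.7 in mature and 246, 226 and 217 in senescent leaves. Diploid libraries gave 9.95, 10.9 and 18.7 FPKM in terminal buds, followed by 24.7, 33.4 and 38.7 in young, 33.7, 36.5 and 29.03 in mature and 180.4, 204 and 183 in senescent leaves. It was thus lowest in buds and highest in senescent leaves of both ploidies, the triploid mature and senescent leaves lay wholly above the diploid ones in FPKM, and the young leaves of the 2 ploidies overlapped. NYC1 was lower in triploid than in diploid terminal buds, with a difference of −0.97 ± 0.17 (SE, adjusted p = 7.16e-05), where diploid library 3 was the highest, and higher in triploid than in diploid mature leaves, by 1.01 ± 0.17 (SE, adjusted p = 2.33e-05). In young leaves the difference was −0.0047 ± 0.17 (SE, adjusted p = 0.992) and in senescent leaves 0.28 ± 0.17 (SE, adjusted p = 0.160), neither past the threshold. The senescent leaf difference of NYC1 turned to −0.044 after scaling, not called. On the counts, which held only 1 library of diploid senescent leaves, it was −0.11 in edgeR and −0.043 in DESeq2. In limma it was called without the libraries that stood apart, with 0.28 (adjusted p = 0.0142). NYC1 rose between young and mature leaves in the triploid, by 1.06 ± 0.17 (SE, adjusted p = 8.02e-06), whereas the diploid value was 0.05 ± 0.17 (SE, adjusted p = 0.791), or 0.55 (adjusted p = 0.00127) after scaling. The 2 changes differed by 1.01 ± 0.24 (SE, adjusted p = 0.00150).

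NOL (Eucgr.G02650, chromosome 7, positions 47104433 to 47109555, minus strand) is the partner of NYC1 in rice and acts on the same substrate. Its transcripts were scarcer. In the triploid NOL was at 2.86, 2.79 and 3.06 FPKM in terminal buds, followed by 11.5, 12.2 and 11.5 in young, 12.95, 13.4 and 14.04 in mature and 5.69, 6.57 and 6.87 in senescent leaves. Among diploid libraries there were 5.68, 3.54 and 8.08 FPKM in terminal buds, followed by 8.17, 10.4 and 11.6 in young, 11.5, 11.3 and 7.903 in mature and 6.43, 6.64 and 5.28 in senescent leaves. NOL peaked in young and mature leaves, where NYC1 did not, and it fell in senescent leaves against mature leaves with a difference of −0.97 ± 0.18 (SE, adjusted p = 6.26e-05) in the triploid and −0.64 ± 0.18 (SE, adjusted p = 0.00380) in the diploid. It was lower in triploid than in diploid terminal buds, with a difference of −0.74 ± 0.18 (SE, adjusted p = 0.00183), although the 3 diploid bud libraries were spread widely. In young, mature and senescent leaves the ploidy difference of NOL was not called (0.21, 0.38 and 0.05), though in mature leaves it passed without diploid mature leaf replicate 1 (0.47, adjusted p = 0.0492, limma) and without the libraries that stood apart (0.38, adjusted p = 0.0186). The ratio of NYC1 to NOL within a library was 1.67 to 2.51 in triploid buds, 2.62 to 2.76 in triploid young leaves, 4.604 to 5.29 in triploid mature leaves and 31.6 to 43.3 in triploid senescent leaves. In the diploid it was 1.75 to 3.08, 3.03 to 3.33, 2.94 to 3.67 and 28.1 to 34.6 at these stages. A gene on the opposite strand, Eucgr.G02651, overlaps NOL and reached at most 1.24 FPKM.

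The magnesium step is the work of STAY-GREEN, and STAY-GREEN LIKE is its close relative, which in Arabidopsis is not the main enzyme of leaf yellowing. STAY-GREEN (Eucgr.E00514, chromosome 5, positions 4897917 to 4900042, minus strand) was in the triploid at 24.6, 27.05 and 27.9 FPKM in terminal buds, followed by 17.3, 14.9 and 17.4 in young, 27.4, 25.6 and 27.8 in mature and 493, 553 and 573 in senescent leaves. The diploid had 28.8, 27.96 and 25.3 FPKM in terminal buds, followed by 14.9, 12.7 and 10.4 in young, 35.7, 35.02 and 32.6 in mature and 1025, 967 and 1048 in senescent leaves. All 6 senescent leaf libraries were far above the 18 others, and every triploid senescent leaf library was below every diploid one. The rise at senescence was 4.27 ± 0.10 (SE, adjusted p = 2.82e-19) in the triploid and 4.84 ± 0.10 (SE, adjusted p = 4.80e-20) in the diploid. STAY-GREEN was lower in triploid than in diploid senescent leaves with a difference of −0.91 ± 0.10 (SE, adjusted p = 1.06e-07) and in mature leaves with a difference of −0.34 ± 0.10 (SE, adjusted p = 0.00503). In young leaves it was higher in the triploid, by 0.37 ± 0.10 (SE, adjusted p = 0.0109), a call that was lost without diploid young leaf replicate 3 (0.24, adjusted p = 0.0640, limma), in edgeR, with 0.35 (adjusted p = 0.109), and in DESeq2, with 0.35 (adjusted p = 0.0789). A gene of the opposite strand, Eucgr.E00515, overlaps STAY-GREEN and reached at most 3.35 FPKM. The senescence protease SAG12 was also lower in triploid senescent leaves, with a difference of −2.43 ± 0.50 (SE, adjusted p = 0.000239). Of the 13 senescence markers tested, 8 were higher and 2 lower there (40.1% higher and 20.0% lower among all genes). After scaling 4 were higher and 2 lower, with 59.8% of all genes called, 49.1% of them higher. Whether the markers bear on the STAY-GREEN difference was not tested.

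STAY-GREEN LIKE (Eucgr.F02776, chromosome 6, positions 39769637 to 39772638, minus strand) had the opposite course. In the triploid it was at 62.4, 57.1 and 60.1 FPKM in terminal buds, followed by 88.9, 91.1 and 101 in young, 55.2, 51.5 and 47.9 in mature and 3.73, 4.82 and 5.46 in senescent leaves. Diploid values were 93.9, 88.4 and 74.5 FPKM in terminal buds, followed by 133, 108 and 94.4 in young, 54.1, 57.5 and 61.3 in mature and 8.04, 7.69 and 9.42 in senescent leaves. It was highest in young leaves, where the ploidies overlapped, and lowest in senescent leaves, where every triploid library was below every diploid one. The fall at senescence was −3.22 ± 0.12 (SE, adjusted p = 7.85e-16) in the triploid and −2.65 ± 0.12 (SE, adjusted p = 2.93e-14) in the diploid, and the ploidy difference in senescent leaves was −0.73 ± 0.12 (SE, adjusted p = 2.59e-05). The lower level in triploid terminal buds, −0.50 ± 0.12 (SE, adjusted p = 0.00194), was not called after scaling (−0.31, adjusted p = 0.103). In mature leaves the ploidy difference was −0.16 (adjusted p = 0.269) before and −0.51 (adjusted p = 0.00571) after scaling. It was also called lower in the triploid on the counts, with −0.47 in edgeR and −0.57 in DESeq2. Within a library, STAY-GREEN over STAY-GREEN LIKE was 0.524 ± 0.04799 in triploid mature leaves and 0.5999 ± 0.0646 in diploid mature leaves (SD, n = 3 each). In senescent leaves the ratio was 117 ± 13.7 in the triploid and 122 ± 8.94 in the diploid, with overlapping libraries, while the level of each gene was lower in the triploid.

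Phytol is removed next, and 3 genes carry the name pheophytinase. Only Eucgr.G03276 (chromosome 7, positions 53373529 to 53377054, plus strand) also carries the Gene Ontology term for pheophytinase activity, while the other 2 are annotated there only as hydrolases. In the triploid Eucgr.G03276 was at 16.6, 16.3 and 16.2 FPKM in terminal buds, followed by 42.7, 39.3 and 39.9 in young, 52.2, 54.8 and 53.4 in mature and 477, 466 and 422 in senescent leaves. In diploid plants the values were 16.7, 17.03 and 27.1 FPKM in terminal buds, followed by 34.5, 37.7 and 38.6 in young, 25.8, 25.3 and 21.7 in mature and 425, 450.2 and 429 in senescent leaves. Senescent leaves of the 2 ploidies overlapped, whereas triploid mature leaves lay wholly above diploid ones. The difference in mature leaves was 1.11 ± 0.12 (SE, adjusted p = 8.44e-08), or 2.20 times the diploid mean, and in senescent leaves it was 0.06 (adjusted p = 0.686), which became −0.26 (adjusted p = 0.0194) after scaling. At senescence Eucgr.G03276 rose by 3.06 ± 0.12 (SE, adjusted p = 1.19e-15) in the triploid and 4.11 ± 0.12 (SE, adjusted p = 1.06e-17) in the diploid. Between young and mature leaves it rose in the triploid, by 0.39 ± 0.12 (SE, adjusted p = 0.00667), and fell in the diploid, with a difference of −0.59 ± 0.12 (SE, adjusted p = 0.000144), a fall that was not called after scaling (−0.09, adjusted p = 0.398).

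Eucgr.B03607 (chromosome 2, positions 55832596 to 55835354, plus strand) and Eucgr.I02423 (chromosome 9, positions 34709005 to 34714573, minus strand) followed another course. Eucgr.B03607 was in the triploid at 29.9, 30.3 and 32.4 FPKM in terminal buds, followed by 48.1, 47.7 and 47.8 in young, 144, 133 and 143 in mature and 119, 119 and 128 in senescent leaves. The diploid libraries held 44.4, 41.4 and 43.03 FPKM in terminal buds, followed by 60.5, 58.1 and 55.7 in young, 190.3, 198 and 180.3 in mature and 184, 194 and 189 in senescent leaves. At each stage the 3 triploid libraries were below the 3 diploid ones, with a difference of −0.46 ± 0.07 in terminal buds, followed by −0.27 ± 0.07 in young, −0.44 ± 0.07 in mature and −0.63 ± 0.07 in senescent leaves (SE, adjusted p of 6.29e-06, 0.00403, 5.95e-06 and 4.40e-08, limma). Eucgr.B03607 is the one member that was lower in the triploid, and called, at every stage both before and after scaling. Eucgr.I02423 was in the triploid at 16.1, 16.9 and 16.02 FPKM in terminal buds, followed by 36.96, 38.9 and 37.2 in young, 105, 92.9 and 103 in mature and 71.5, 75.1 and 72.04 in senescent leaves. Its diploid values were 20.1, 21.1 and 29.8 FPKM in terminal buds, followed by 40.5, 39.6 and 41.7 in young, 95.9, 102 and 97.2 in mature and 107, 112 and 96.9 in senescent leaves. It was lower in triploid than in diploid terminal buds (−0.49, adjusted p = 0.000438) and senescent leaves (−0.52, adjusted p = 0.000131), while mature leaves overlapped with 0.02 (adjusted p = 0.855), or −0.33 (adjusted p = 0.00147) after scaling.

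Both genes had risen by the mature stage. The step from young to mature leaves was 1.53 ± 0.07 (SE, adjusted p = 3.93e-15) in the triploid and 1.69 ± 0.07 (SE, adjusted p = 5.99e-16) in the diploid for Eucgr.B03607, and 1.38 ± 0.10 (SE, adjusted p = 4.54e-11) and 1.25 ± 0.10 (SE, adjusted p = 2.20e-10) for Eucgr.I02423. At senescence Eucgr.I02423 fell in the triploid, with a difference of −0.45 ± 0.10 (SE, adjusted p = 0.000536), and had 0.09 (adjusted p = 0.450) in the diploid. Eucgr.B03607 fell slightly in the triploid, with a difference of −0.20 ± 0.07 (SE, adjusted p = 0.0130), a call lost without triploid mature leaf replicate 1 (−0.17, adjusted p = 0.0535, limma), and had −0.0032 (adjusted p = 0.980) in the diploid. The 2 genes had a Pearson r of 0.98 with each other over the 8 group means, and of 0.60 and 0.61 with Eucgr.G03276.

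The make-up of the pheophytinase transcripts therefore changed with the stage. Eucgr.G03276 made up 17.3 to 19.5% of the summed FPKM of the 3 genes in triploid mature leaves and 7.25 to 8.28% in diploid mature leaves. In senescent leaves its share was 67.8 to 71.5% in the triploid and 59.3 to 59.99% in the diploid. The share was higher in every triploid library than in every diploid library at the young, mature and senescent stages, and the ploidies overlapped in terminal buds. With 3 libraries against 3, an exact two-sided permutation test on such a share cannot go below p = 0.10. A share within a library does not depend on how libraries are scaled.

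**Figure D3:**
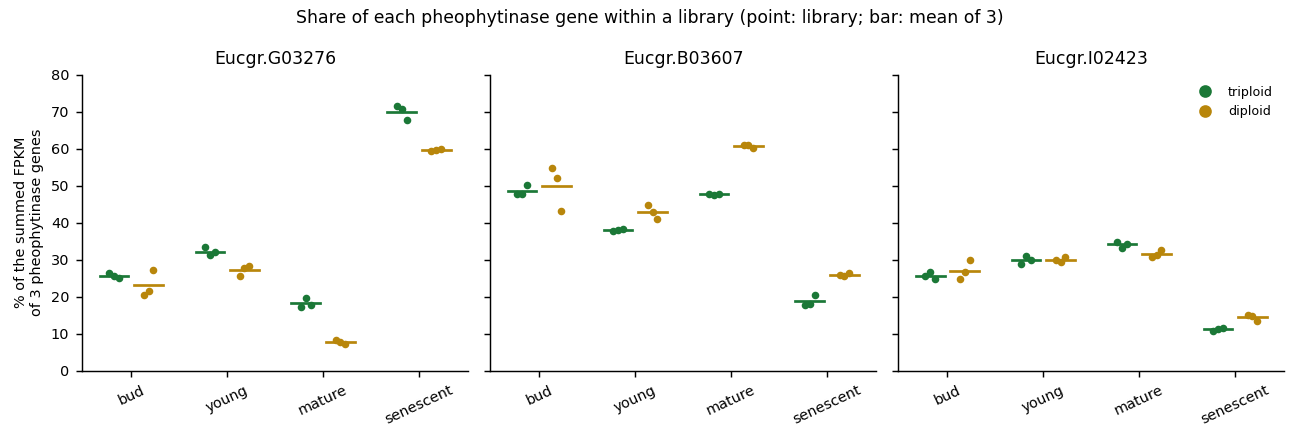
Percent of the summed FPKM of the 3 pheophytinase genes that each gene makes up (linear axis), at 4 leaf stages, with 1 point a library, a bar for the mean of 3, and triploid left of diploid. Eucgr.G03276 goes to 69.97 ± 1.89% in triploid and 59.6 ± 0.348% in diploid senescent leaves (SD), while Eucgr.B03607 is the largest share in mature leaves of both.

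The chlorophyllases are the other enzymes that cut off phytol. The 2 chlorophyllase-2 genes lie side by side on the minus strand of chromosome 2, Eucgr.B01021 at positions 14134003 to 14137360 and Eucgr.B01022 at 14143887 to 14147550, with 6526 bp between them, and as neighbouring copies they may share reads, so the split between them is uncertain. Eucgr.B01021 was in the triploid at 43.99, 48.1 and 47.1 FPKM in terminal buds, followed by 94.8, 94.9 and 94.6 in young, 18.5, 18.1 and 14.5 in mature and 3.38, 5.001 and 4.17 in senescent leaves. Diploid plants had 70.2, 56.2 and 69.8 FPKM in terminal buds, followed by 143, 132 and 127 in young, 53.5, 41.5 and 56.3 in mature and 11.2, 11.5 and 11.5 in senescent leaves. It was highest in young leaves and lowest in senescent leaves, and at each stage every triploid library was below every diploid one. The ploidy difference was −0.48 ± 0.12 in terminal buds, followed by −0.49 ± 0.12 in young, −1.51 ± 0.12 in mature and −1.27 ± 0.12 in senescent leaves (SE, adjusted p of 0.00244, 0.00505, 1.35e-09 and 1.20e-08, limma). The call in terminal buds was lost after scaling, with −0.29 (adjusted p = 0.0759), and the call in young leaves without the libraries that stood apart, with −0.47 (adjusted p = 0.0627).

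Eucgr.B01022 differed from its neighbour in mature leaves. In the triploid it was at 3.64, 4.54 and 4.92 FPKM in terminal buds, followed by 39.5, 40.1 and 41.3 in young, 7.11, 6.17 and 6.48 in mature and 0.156, 0.269 and 0 in senescent leaves. In the diploid it was at 8.72, 7.58 and 8.35 FPKM in terminal buds, 52.03, 47.9 and 43.7 in young leaves and 0.419, 0.728 and 0.397 in mature leaves, and it is listed at 0 in all 3 senescent leaf libraries. It was expressed mainly in young leaves of both ploidies, and in mature leaves it remained measurable in the triploid and was close to 0 in the diploid. Its triploid mature leaf level was 12.8 times the diploid mean, a difference of 2.33 ± 0.12 (SE, adjusted p = 9.87e-13), while in terminal buds it was lower in the triploid, with a difference of −0.79 ± 0.12 (SE, adjusted p = 1.20e-05). In young leaves the difference was −0.24 (adjusted p = 0.148). From young to mature leaves the level fell with a difference of −2.45 ± 0.12 (SE, adjusted p = 2.91e-14) in the triploid and −5.02 ± 0.12 (SE, adjusted p = 1.53e-19) in the diploid, and the 2 falls differed by 2.57 ± 0.17 (SE, adjusted p = 4.21e-10), the 65th highest of 19174 such differences. For senescent leaves, where the triploid libraries hold 16, 18 and 0 counts and the 1 diploid library with counts holds 0, no fold is given. Within a library, Eucgr.B01022 made up 25.4 to 30.8% of the pair in triploid mature leaves and 0.6996 to 1.72% in diploid mature leaves, with 29.4 to 30.4% and 25.7 to 26.7% in young leaves.

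The summed FPKM of the pair was nonetheless lower in every triploid library than in every diploid one at each stage. In young leaves the sum was 135 ± 0.7996 in the triploid and 182 ± 12.4 in the diploid (SD, n = 3 each). In mature leaves it was 23.6 ± 2.34 in the triploid and 50.97 ± 7.68 in the diploid. A search by ortholog code, made after the table was opened, gave 2 genes listed at 0 in every library. They were Eucgr.B01020, the other neighbour of Eucgr.B01021, under the chlorophyllase code, and Eucgr.F03846, under the code of STAY-GREEN. Another gene of the cluster, Eucgr.B01023, was found only through its chlorophyllase ortholog code in the same search. It was at 52.2 ± 0.481 FPKM in triploid and 88.98 ± 1.58 FPKM in diploid mature leaves, 45.6 ± 2.998 and 67.6 ± 3.29 in senescent leaves, and 6.68 ± 1.296 and 7.73 ± 0.712 in terminal buds, so it did not follow the young leaf peak of its neighbours.

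Red chlorophyll catabolite reductase (Eucgr.I00930, chromosome 9, positions 19024607 to 19027218, plus strand) was the member that varied least, 9.74 to 26.9 FPKM over all libraries. In the triploid it was at 10.2, 12.1 and 9.74 FPKM in terminal buds, followed by 11.9, 14.3 and 13.95 in young, 20.96, 19.01 and 17.7 in mature and 26.9, 25.04 and 23.7 in senescent leaves. Diploid libraries gave 13.6, 16.5 and 21.7 FPKM in terminal buds, followed by 17.7, 18.4 and 16.5 in young, 19.3, 16.4 and 18.5 in mature and 24.9, 26.4 and 26.6 in senescent leaves. Senescent leaves were above the other stages in both ploidies, and the ploidies overlapped in mature and senescent leaves. Between the ploidies the senescent leaf difference was −0.04 (adjusted p = 0.822), which was called lower in the triploid after scaling, with −0.36 (adjusted p = 0.00938). On the counts, which held only 1 library of diploid senescent leaves, it was −0.51 in edgeR and −0.45 in DESeq2. At senescence it rose by 0.38 ± 0.12 (SE, adjusted p = 0.0119) in the triploid, a call lost without triploid mature leaf replicate 3 (0.32, adjusted p = 0.0568, limma), and by 0.50 ± 0.12 (SE, adjusted p = 0.00143) in the diploid. It was lower in triploid terminal buds, with a difference of −0.63 ± 0.12 (SE, adjusted p = 0.000271), and in triploid young leaves, with a difference of −0.37 ± 0.12 (SE, adjusted p = 0.0352). The young leaf call was lost without triploid young leaf replicate 1 or 3 or diploid young leaf replicate 1 or 2, with differences of −0.30, −0.40, −0.36 and −0.34.

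The ring-opening step was absent from the descriptions, and it was looked up by ortholog code after the table was opened. Of 3 genes coded as pheophorbide a oxygenase, only Eucgr.B03924 (chromosome 2, positions 58457974 to 58463124, plus strand) carries the Gene Ontology term for that activity. In the triploid it was at 5.28, 5.79 and 5.93 FPKM in terminal buds, followed by 10.3, 8.59 and 10.1 in young, 34.2, 32.4 and 31.7 in mature and 144, 154 and 137 in senescent leaves. Among diploid libraries there were 6.202, 6.33 and 10.3 FPKM in terminal buds, followed by 9.75, 11.1 and 11.5 in young, 19.7, 20.4 and 16.1 in mature and 180.2, 159 and 179 in senescent leaves. It was highest in senescent leaves of both ploidies, and above the diploid in triploid mature leaves, by 0.78 ± 0.13 (SE, adjusted p = 2.58e-05). The rise at senescence was 2.11 ± 0.13 (SE, adjusted p = 4.20e-12) in the triploid and 3.14 ± 0.13 (SE, adjusted p = 5.06e-15) in the diploid. In senescent leaves every triploid library was below every diploid one. The difference there was −0.25 (adjusted p = 0.112) in limma, and it was called after scaling, with −0.57 (adjusted p = 0.000187). On the counts, which held only 1 library of diploid senescent leaves, it was −0.74 in edgeR and −0.67 in DESeq2. The other 2 genes of the code were more abundant. Eucgr.C04031 was at 323 ± 17.3 FPKM in triploid and 338 ± 4.57 FPKM in diploid senescent leaves, and Eucgr.J01823 peaked in mature leaves at 283 ± 17.8 FPKM in the triploid and 322 ± 28.5 FPKM in the diploid. The gene coded as 7-hydroxymethyl chlorophyll a reductase, Eucgr.H00112, which completes the turn from chlorophyll b to a, was at 11.96 ± 0.805 FPKM in triploid and 6.67 ± 1.12 FPKM in diploid mature leaves and at 4.45 ± 0.0833 and 4.16 ± 1.11 FPKM in senescent leaves.

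Set out by stage, the ploidy comparison took a different form in each tissue. In terminal buds the triploid had 8 of the 10 genes lower and 0 were higher (48.8% of all genes called, 14.0% higher and 34.9% lower). After scaling 6 were lower, among them NYC1, NOL and red chlorophyll catabolite reductase, and 0 were higher. Of all genes 46.0% were then called, 47.1% of them higher. With edgeR on the counts 5 were called (34.6% of all genes). In young leaves 3 genes (Eucgr.B01021, Eucgr.B03607 and red chlorophyll catabolite reductase) were lower and STAY-GREEN was higher, with 6 not called (23.4% of all genes called, 11.4% higher and 11.9% lower), and after scaling the count was also 4 (23.3% of all genes called). In mature leaves 3 genes (NYC1, Eucgr.G03276 and Eucgr.B01022) were higher and 3 (Eucgr.B01021, Eucgr.B03607 and STAY-GREEN) were lower (64.9% of all genes called, 42.4% higher and 22.6% lower). In senescent leaves 5 genes (Eucgr.B01021, Eucgr.B03607, Eucgr.I02423, STAY-GREEN and STAY-GREEN LIKE) were lower and 0 were higher (60.1% of all genes called, 40.1% higher and 20.0% lower). These mature and senescent calls were each called in the same direction after scaling. Then 3 genes were higher and 5 lower in mature leaves, with 63.9% of all genes called, 47.1% of them higher. In senescent leaves 0 were higher and 7 lower, with 59.8% of all genes called, 49.1% of them higher. Before scaling, the share called among the 10 genes was near that of all genes in mature and senescent leaves.

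**Figure D4:**
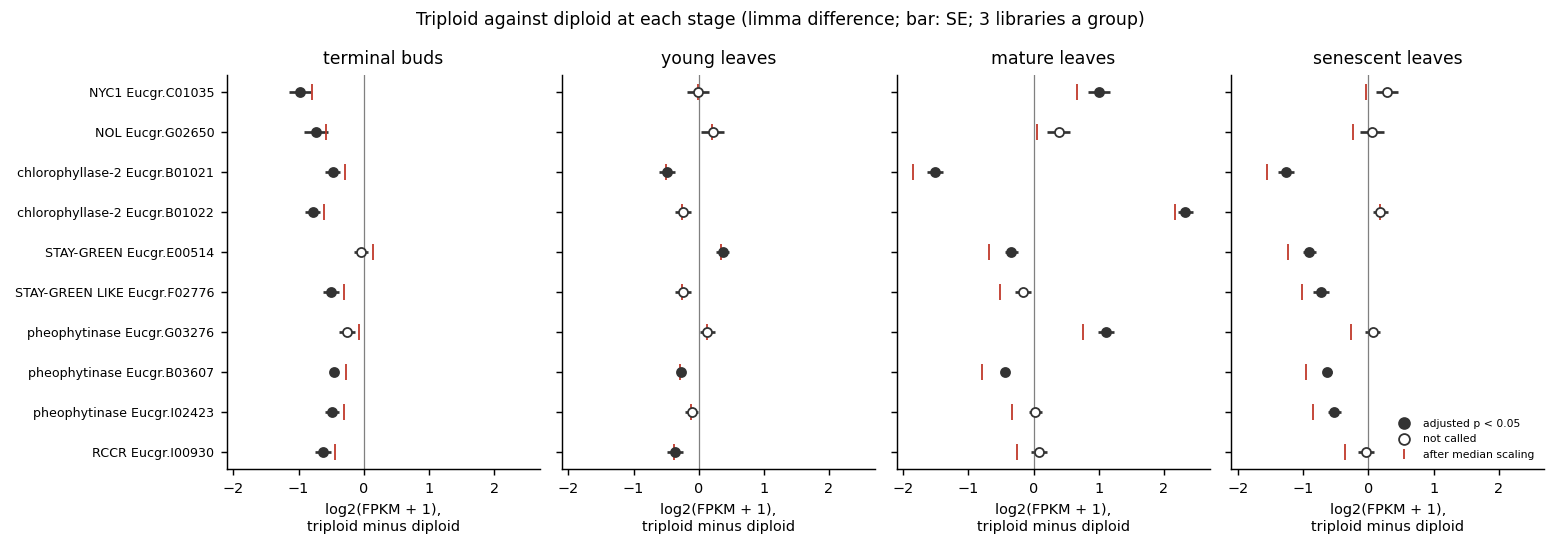
Triploid minus diploid difference of log2(FPKM + 1) for the 10 genes at each stage, from limma with its SE (3 libraries a group, filled points called at an adjusted p under 0.05), with a red tick for the value after scaling by the median ratio. In mature leaves the genes spread from −1.51 (Eucgr.B01021) to 2.33 (Eucgr.B01022), whereas in senescent leaves the 5 called genes all lie below 0.

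Whether a stage step differed between ploidies was tested as the triploid minus the diploid change. For the step to young leaves 4 genes had a larger value in the triploid and 0 a smaller one (26.0% of all genes called, 19.4% higher and 6.57% lower), and 2 of them, NYC1 (0.97 ± 0.24, SE, adjusted p = 0.00522) and NOL (0.95 ± 0.25, SE, adjusted p = 0.00860), were also called after scaling (22.3% of all genes). The edgeR and DESeq2 fits to the counts called 2 each (14.3% and 19.1% of all genes). The NOL value was not called without the libraries that stood apart (0.66, adjusted p = 0.0562). For the step to mature leaves 4 genes were higher and 2 lower (51.1% of all genes called, 34.9% higher and 16.3% lower, or 47.0% called after scaling with 3 members higher and 3 lower, as Eucgr.B03607 had −0.16 before scaling and −0.50, called, after it), NYC1 and Eucgr.G03276 (0.98 ± 0.17, SE, adjusted p = 9.78e-05) among the higher and STAY-GREEN (−0.71 ± 0.14, SE, adjusted p = 0.000364) and Eucgr.B01021 (−1.02 ± 0.17, SE, adjusted p = 7.05e-05) among the lower. For the step to senescent leaves 6 genes were lower and 0 higher (25.7% of all genes called, 13.6% higher and 12.1% lower), 1 of them Eucgr.B01022, whose diploid level was already close to 0 in mature leaves, so that the pseudocount of 1 bounds its fall there. The counts held only 1 library of diploid senescent leaves, against 3 in limma, which limits the fits to them at this step. On the counts Eucgr.B01022 was not called there and had the other sign, 3.36 in edgeR and 2.44 in DESeq2. After scaling 5 were lower (26.8% of all genes called), and DESeq2 on the counts called 3 (16.1% of all genes). Eucgr.G03276 had −1.05 ± 0.17 (SE, adjusted p = 7.73e-05), NYC1 −0.73 ± 0.24 (SE, adjusted p = 0.0288), STAY-GREEN −0.57 ± 0.14 (SE, adjusted p = 0.00489) and Eucgr.I02423 −0.55 ± 0.14 (SE, adjusted p = 0.00678). In this fit the rise of NYC1, STAY-GREEN and Eucgr.G03276 at senescence was thus smaller in the triploid, from a mature leaf level that was higher for NYC1 and Eucgr.G03276 and lower for STAY-GREEN. On the counts, with that 1 diploid library, NYC1 was called by neither edgeR, with −0.82, nor DESeq2, with −0.66, and STAY-GREEN not by DESeq2, with −0.57. The limma value of NYC1 passed narrowly, and it was not called without triploid mature leaf replicate 2, triploid senescent leaf replicate 2 or 3, diploid mature leaf replicate 3 or diploid senescent leaf replicate 2 (values of −0.69, −0.72, −0.69, −0.64 and −0.67).

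Beside these genes, the list of 19 chlorophyll synthesis genes was followed, which holds magnesium chelatase and the enzymes around it. In mature leaves 16 of the 19 were higher in the triploid and 1 was lower (median 0.89 against 0.20 for all genes, log2, with 42.4% higher and 22.6% lower among all genes), and in senescent leaves 10 were higher and 1 lower (40.1% higher and 20.0% lower among all genes). After scaling the split was 13 higher and 1 lower in mature leaves, where 63.9% of all genes were called, 47.1% of them higher. In senescent leaves it was 6 higher and 5 lower, where 59.8% of all genes were called, 49.1% of them higher. The ChlH subunit of magnesium chelatase, Eucgr.A02348, was at 306 ± 3.99 FPKM in triploid and 114 ± 10.99 FPKM in diploid mature leaves. At senescence 16 of the 19 fell in the triploid and 13 in the diploid (medians −1.07 and −0.63), where 32.1% and 32.4% of all genes fell. The summed FPKM of the 10 breakdown genes over that of the 19 synthesis genes was 0.205 to 0.222 in triploid mature leaves and 0.368 to 0.462 in diploid mature leaves. In senescent leaves this ratio was 2.04 to 2.18 in the triploid and 3.22 to 3.29 in the diploid. Triploid libraries had the lower ratio at the young, mature and senescent stages, and the ploidies overlapped in buds. In mature leaves the breakdown sums overlapped (485 to 510 FPKM in the triploid, 505 to 524 FPKM in the diploid). The synthesis sums there were 2344 ± 120 and 1296 ± 177 FPKM (SD). In senescent leaves STAY-GREEN alone made up 34.1 to 39.5% of the breakdown sum in the triploid and 48.9 to 52.4% in the diploid.

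**Figure D5:**
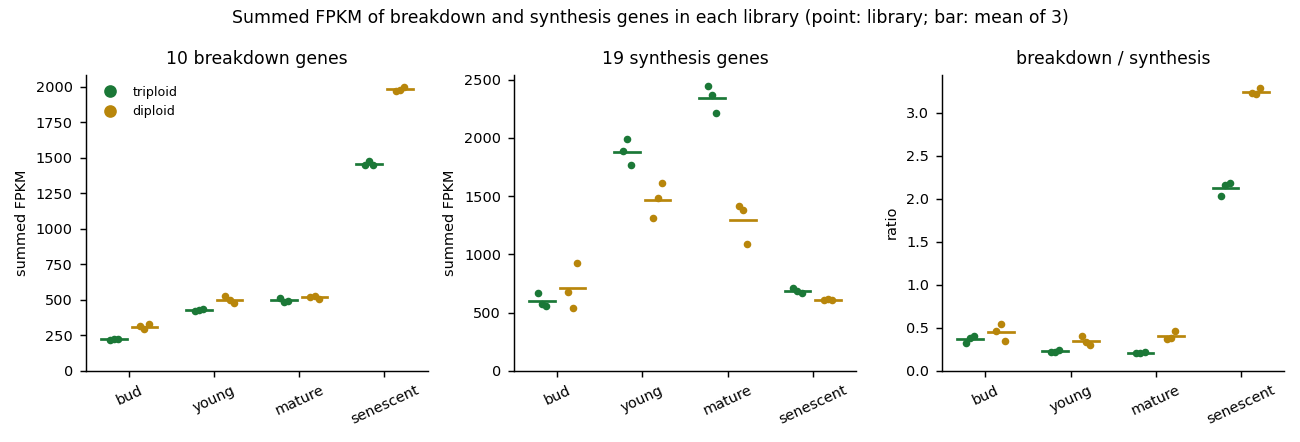
Summed FPKM of the 10 breakdown genes (left), of 19 chlorophyll synthesis genes (middle) and the ratio of the sums within each library (right) at 4 leaf stages, with 1 point a library, a bar for the mean of 3, and triploid left of diploid. The ratio in senescent leaves is 2.13 ± 0.0763 in the triploid and 3.25 ± 0.0398 in the diploid (SD).

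Of 16 genes for light-harvesting chlorophyll-binding proteins, the scaffold that holds most leaf chlorophyll, 15 fell at senescence in the triploid with 0 rising (median −3.38 against −0.05 for all genes), and 15 fell and 1 rose in the diploid (median −2.42 against −0.08). Among all genes 32.1% fell in the triploid and 32.4% in the diploid. In senescent leaves 15 of the 16 were lower in the triploid (20.0% of all genes, median −0.70 against 0.17 for all genes, log2), and the summed FPKM was 2705 to 2984 in triploid and 4481 to 4866 in diploid senescent leaves. Of 24 senescence regulators, NAC, WRKY and ethylene factors, 22 were tested, and 15 of them rose and 2 fell at senescence in the triploid (median 0.71, with 29.0% higher and 32.1% lower among all genes), and 10 rose and 4 fell in the diploid (median 0.25, with 25.3% higher and 32.4% lower among all genes). The most abundant of them, Eucgr.G02486, annotated as NAC transcription factor 29, was at 1795 ± 24.99 FPKM in triploid senescent leaves against 9.28 ± 0.437 FPKM in triploid mature leaves, and at 1426 ± 12.6 against 4.45 ± 0.921 in the diploid. In senescent leaves 15 regulators were higher in the triploid and 1 was lower (median 0.53 against 0.17 for all genes, of which 40.1% were higher and 20.0% lower). After scaling 11 were higher and 1 lower, with 59.8% of all genes called, 49.1% of them higher. Of 4 phytol and related genes, 1 was higher and 3 were lower in triploid terminal buds (median −0.37 against −0.18 for all genes, log2). Among all genes 14.0% were higher and 34.9% lower there. After scaling 1 of the 4 was higher and 1 lower, with 46.0% of all genes called, 47.1% of them higher. The higher one was Eucgr.I00622, a probable phytol kinase, which rescues phytol for tocopherol synthesis. It was at 39.9 ± 1.15 FPKM in triploid and 9.82 ± 2.48 FPKM in diploid terminal buds (1.95 ± 0.18, SE, adjusted p = 1.77e-08) and is listed at 0 in senescent leaves of both.

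For NYC1, NOL, Eucgr.B01022 and red chlorophyll catabolite reductase, the transcripts with the most similar course over the 8 group means of log2(FPKM + 1) were listed, as a description over 8 points that share stages and ploidies. NYC1 was most like Eucgr.J01045, annotated as ycf45 (Pearson r = 0.998), followed by Eucgr.A02835 and Eucgr.C04151 (both 0.991). NOL was most like Eucgr.H00112 (0.992), the gene coded as 7-hydroxymethyl chlorophyll a reductase, then Eucgr.I00094 (0.980) and Eucgr.A00010 (0.977). The chlorophyllase Eucgr.B01022 was most like Eucgr.C03292 (0.993), Eucgr.H02975 (0.991) and Eucgr.K01721 (0.990). Red chlorophyll catabolite reductase was most like Eucgr.G02355 and Eucgr.K00128 (both 0.983), then Eucgr.F03688 (0.978). No other member of the set was among these. Among the 10 genes, NYC1 and Eucgr.G03276 had an r of 0.94, and STAY-GREEN and STAY-GREEN LIKE had −0.97.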

How the data were processed

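The deposited table gives, for 26033 genes, FPKM of 24 libraries computed by the authors, with gene names and positions. The submitters' notes list HISAT2 2.0, StringTie 1.3.0 and Bowtie 0.12.2 without roles, and a mouse build at odds with the gene identifiers, which carry version 2.0 of the *E. grandis* gene models. The build the reads were aligned to is not given in the sources used here. Label and paper differ on library kit and sequencer, and the paper names reads rather than fragments per kilobase. Read counts deposited by the authors were used for 22 libraries (1 of diploid senescent leaves), totalling 38395755 to 64400745 each, and 2 count columns that matched no library were not used. No 2 replicates with counts agreed within counting noise, and the diploid senescent leaf libraries could not be compared in this way.

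FPKM of 0.0001 or less (130519 values) were set to 0. limma 3.58.1 (R 4.3.3), with a variance trend, was fitted to log2(FPKM + 1) as 8 group means for 19174 genes averaging 0.5 FPKM or more, p-values were adjusted over all genes by the Benjamini-Hochberg method, and 13 contrasts were taken. Tried besides were a pseudocount of 0.1, no filter, median-ratio scaling over 11530 genes of at least 1 FPKM in every library, a replicate block, each library left out, 3 libraries left out together, and edgeR 4.0.16 and DESeq2 1.42.0 on the counts. The fits were tested on simulated data. Named were all 10 members, the most abundant genes of each context list (at most 3) and the 3 genes most alike in course to each of 4 members. Members and lists were chosen with earlier results of these data known, and genes found by ortholog code were added once the table was open.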

Additional observations from a re-analysis of the deposited data

Results flagged for a closer look

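Each value here is the triploid minus the diploid change at a step between stages (log2, limma), singled out because the test of that difference passed an adjusted p of 0.05. From terminal buds to young leaves it was 0.97 (adjusted p = 0.00522) for NYC1, 0.95 (adjusted p = 0.00860) for NOL, 0.55 (adjusted p = 0.0189) for the chlorophyllase Eucgr.B01022 and 0.41 (adjusted p = 0.0370) for STAY-GREEN. After scaling by the median ratio Eucgr.B01022 had 0.37 (adjusted p = 0.145) and STAY-GREEN 0.20 (adjusted p = 0.458). Without triploid terminal bud replicate 1 Eucgr.B01022 was not called (0.44), nor was Eucgr.E00514 (STAY-GREEN) without that library, triploid young leaf replicate 1 or 3, diploid terminal bud replicate 1 or 2 or diploid young leaf replicate 2 or 3 (values of 0.29 to 0.42).

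From young to mature leaves the chlorophyllase-2 neighbours lay on opposite sides, with 2.57 (adjusted p = 4.21e-10) for Eucgr.B01022 and −1.02 (adjusted p = 7.05e-05) for Eucgr.B01021. NYC1 had 1.01 (adjusted p = 0.00150), the pheophytinase Eucgr.G03276 0.98 (adjusted p = 9.78e-05) and STAY-GREEN −0.71 (adjusted p = 0.000364). Red chlorophyll catabolite reductase (Eucgr.I00930) had 0.46 (adjusted p = 0.0353), which became 0.12 (adjusted p = 0.543) after scaling. It was not called without triploid young leaf replicate 1, triploid mature leaf replicate 1 or 2, diploid young leaf replicate 1 or 2 or diploid mature leaf replicate 2 (values of 0.38 to 0.46).

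From mature to senescent leaves 6 values passed, all below 0 in limma, with 13.6% higher and 12.1% lower among all genes. They were −1.05 (adjusted p = 7.73e-05) for Eucgr.G03276, −0.73 (adjusted p = 0.0288) for NYC1, −0.58 (adjusted p = 0.0179) for STAY-GREEN LIKE, −0.57 (adjusted p = 0.00489) for STAY-GREEN, −0.55 (adjusted p = 0.00678) for the pheophytinase Eucgr.I02423 and −2.15 (adjusted p = 4.11e-09) for Eucgr.B01022. In the diploid Eucgr.B01022 was near 0 in mature leaves and listed at 0 in senescent leaves, so the pseudocount of 1 sets how far it could fall. The counts, which held only 1 library of diploid senescent leaves, gave 3.36 in edgeR and 2.44 in DESeq2, neither called. On the counts NYC1 (Eucgr.C01035) passed in neither fit (−0.82 and −0.66) and STAY-GREEN (Eucgr.E00514) not in DESeq2 (−0.57). STAY-GREEN LIKE (Eucgr.F02776) had −0.51 (adjusted p = 0.0834) after scaling, and it was not called without triploid senescent leaf replicate 1 (−0.45) or diploid senescent leaf replicate 3 (−0.50).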

How the results depend on the processing

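Of 130 differences (10 genes, 13 contrasts), 92 were called in the limma fit. That fit called 23.4% to 76.6% of all genes, depending on the contrast. Another 26 differences were called by no fit and are left out here, and the cause of each change was not tested. In terminal buds edgeR called 5 genes between ploidies (34.6% of all genes) against 8 in limma (48.8%). For the ploidy difference in the step to young leaves, limma called 4 genes (26.0% of all genes). The count became 2 after scaling (22.3%), in edgeR (14.3%), in DESeq2 (19.1%) and without the 3 libraries that lay apart. It was 2 to 5 with 1 library left out (2 without triploid terminal bud replicate 1). In the step to senescent leaves, where the counts held only 1 diploid senescent leaf library, DESeq2 called fewer than the 6 of limma. Signs turned in the mature leaf ploidy comparison, for red chlorophyll catabolite reductase (Eucgr.I00930; −0.25 after scaling, −0.22 in edgeR, −0.32 in DESeq2), Eucgr.I02423 (−0.33, −0.29 and −0.38 in that order) and NOL (Eucgr.G02650; −0.0082 in DESeq2). In senescent leaves they turned for NYC1 (Eucgr.C01035; −0.044, −0.11 and −0.043) and Eucgr.G03276 (−0.26, −0.35 and −0.29). In the triploid step to young leaves Eucgr.I00930 had −0.034 after scaling and −0.058 in DESeq2. In the diploid step to mature leaves, without the 3 libraries, NYC1 had −0.020, NOL −0.035 and Eucgr.I00930 −0.028. With 1 library left out these ranged over −0.12 to 0.19, −0.11 to 0.17 and −0.012 to 0.10, and the ploidy difference ranged over −0.0099 to 0.076 for Eucgr.I02423 in mature leaves and −0.086 to 0.0012 for Eucgr.I00930 in senescent leaves. Eucgr.B01022 in the senescent step, with 1 diploid count library at 0, had 3.36 in edgeR (adjusted p = 0.669) and 2.44 in DESeq2 (adjusted p = 0.486), against −2.15 in limma. With a pseudocount of 0.1 Eucgr.B01022 was called in senescent leaves (1.08) and no longer in the step to young leaves (0.66).

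Whether replicate numbers pair the libraries was not settled. Over 30 same-numbered pairs in 10 pairs of groups the deviations correlated at −0.31 to 0.32, and in 0 pairs of groups were all above the limit set. Of the 30 library pairs 15 correlated best by number, among them all 3 between triploid terminal buds and young leaves. The replicate block changed no call and left 8 genes called in terminal buds. Low levels limit Eucgr.B01022 in senescent leaves and NOL, which held 274 to 1652 counts.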
